A study of Rattus norvegicus with 18 samples.

Results

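Cultures of neonatal heart muscle cells usually carry some other cells of the heart, and 38 marker genes of those non-myocyte cells are described here. They were listed by cell class: 7 of fibroblasts, 3 of the epicardium, 7 of smooth muscle and pericytes, 7 of endothelium, 12 of macrophages and other leukocytes and 2 of Schwann cells. Of the 38, 37 have a row of their own among the 17303 rows of the deposited table; Upk3b was not analysed here. Messenger RNA was sequenced from ventricular cardiomyocytes of Wistar rats at postnatal day 3, in 18 libraries that form 6 groups of 3. Every culture had AraC, an inhibitor of dividing cells, for 48 h and was serum starved for 24 h, and was then treated for 48 h. The groups were Vehicle, phenylephrine (PE) at 10 µM, PE with Senexin A at 10 µM, PE with Senexin A at 50 µM, Senexin A alone at 10 µM and Senexin A alone at 50 µM. PE is an agonist of alpha-1 adrenergic receptors that makes cardiomyocytes grow, and Senexin A inhibits the kinase CDK8, the kinase that the series names in its title. Whether the 3 libraries of a group came from separate cultures or litters is not in the labels. A p-value here therefore measures only how far these libraries spread, which may be technical.

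As background, fibroblasts make the collagen matrix of the heart, and smooth muscle cells and pericytes wrap its vessels with a contractile coat of actin-binding proteins. Endothelial cells line the vessels, the epicardium covers the surface of the heart, and resident macrophages clear dead cells. After enzymatic digestion of a neonatal heart, these cells enter the dish with the cardiomyocytes. AraC limits those that divide. In a bulk library, fewer cells of a type and less of its RNA per cell cannot be told apart.

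At 50 µM of Senexin A, 10 of 29 tested markers fell against Vehicle and 9 of 29 fell with PE present. These counts were near the shares of all genes that fell (30.2% and 27.4%). Libraries were not paired by replicate number in these counts, and 0 markers rose in either comparison (30.5% and 29.3% of all genes). Among the markers that fell were Pcolce, to 0.275 of its Vehicle mean, Cnn1, to 0.320, and Tagln, to 0.379. PE alone raised Cnn1 to 2.12 times its Vehicle mean. Of the macrophage markers Aif1 alone fell at 50 µM against Vehicle. Macrophage levels differed mostly between replicate numbers. With libraries compared within a number, 4 of 8 macrophage genes were higher at 10 µM against Vehicle (14.4% of all rows). At 50 µM against Vehicle 0 of 8 were higher (33.6%). With PE present, 4 of 8 were higher at 10 µM (14.7%) and 2 of 8 at 50 µM (32.6%). Without that pairing, 0 of 8 were called higher in any of these comparisons, beside 9.13% to 30.5% of all rows. No tested marker was called in the tests of whether the effect of Senexin A differed with PE.

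Levels are given in FPKM (fragments scaled by gene length and by the mapped fragments of the library), so levels of different genes can be compared. Tagln, an actin-binding protein of smooth muscle, was the highest marker, between 870 and 3214 FPKM with a median of 1560. Pcolce (55.5 to 340 FPKM), which promotes the trimming of procollagen, Mcam (56.2 to 246), an adhesion protein of pericytes and vessels, and Cnn1 (29.3 to 375), the smooth muscle protein calponin, came next. Their medians were 159, 154 and 126 FPKM, and their ranges overlapped.

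The middle levels came from several classes. Myh11, the smooth muscle myosin heavy chain, ran from 31.8 to 142 FPKM and the macrophage enzyme Lyz2, a lysozyme, from 13.7 to 355. Thy1 (22.3 to 91.2), a surface protein, Pdgfrb (23.8 to 57.2), a growth factor receptor of pericytes, Dcn (14.2 to 126), the proteoglycan decorin, and Eng (21.0 to 48.5), a TGF-beta co-receptor, had medians between 33.8 and 49.1 FPKM. Lum (lumican), Ddr2 (a collagen receptor), Tcf21 (a transcription factor of fibroblasts), Cspg4 (the pericyte proteoglycan NG2) and Notch3 (a receptor of mural cells) had medians from 11.3 to 17.1 FPKM.

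The lower markers included Tyrobp, an adaptor of myeloid receptors (median 8.62 FPKM), Cd68, a lysosomal protein of macrophages (8.46), Msln, mesothelin of the epicardial surface (5.60), S100b, a calcium-binding protein of glia (4.22), and Pdgfra, a receptor of fibroblasts (2.76). Csf1r, the receptor for colony stimulating factor, had a median of 1.72 FPKM, Cd14, a co-receptor for bacterial lipid, 1.69, C1qa, a complement chain, 1.61, and Aif1, an actin-binding protein of macrophages, 0.886. Ptprc, the leukocyte antigen CD45, had a median of 0.761 FPKM, and Wt1, a transcription factor of the epicardium, 0.879.

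The listed endothelial markers were low apart from Eng, which made up 89.8% of the summed level of its class and is also made by other cells. The angiopoietin receptor Tek reached 2.97 FPKM, its relative Tie1 2.06, and the junction protein Pecam1 1.68. Cdh5, the endothelial cadherin, stayed at or under 0.877 FPKM, Emcn at or under 1.01, and Vwf, von Willebrand factor, at or under 0.224. Of 11 further endothelial genes outside the list, 4 reached 1 FPKM in at least 3 libraries and the rest did not. Among the 4 were Esam at 6.22 to 24.3 FPKM and Flt1 at 1.32 to 5.23. The scavenger receptor Cd163 was at the floor of the table, 0.01 FPKM, in 15 of 18 libraries, Mrc1 stayed at or under 1.27 FPKM, C1qb at or under 0.833 and C1qc at or under 0.846. Sox10, which defines the Schwann lineage, did not pass 0.489 FPKM. Those 8 genes (Cdh5, Vwf, Emcn, Cd163, Mrc1, C1qb, C1qc and Sox10) had fewer than 3 libraries at 1 FPKM or more and were not tested, which left 29 of the 37.

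**Figure D1:**
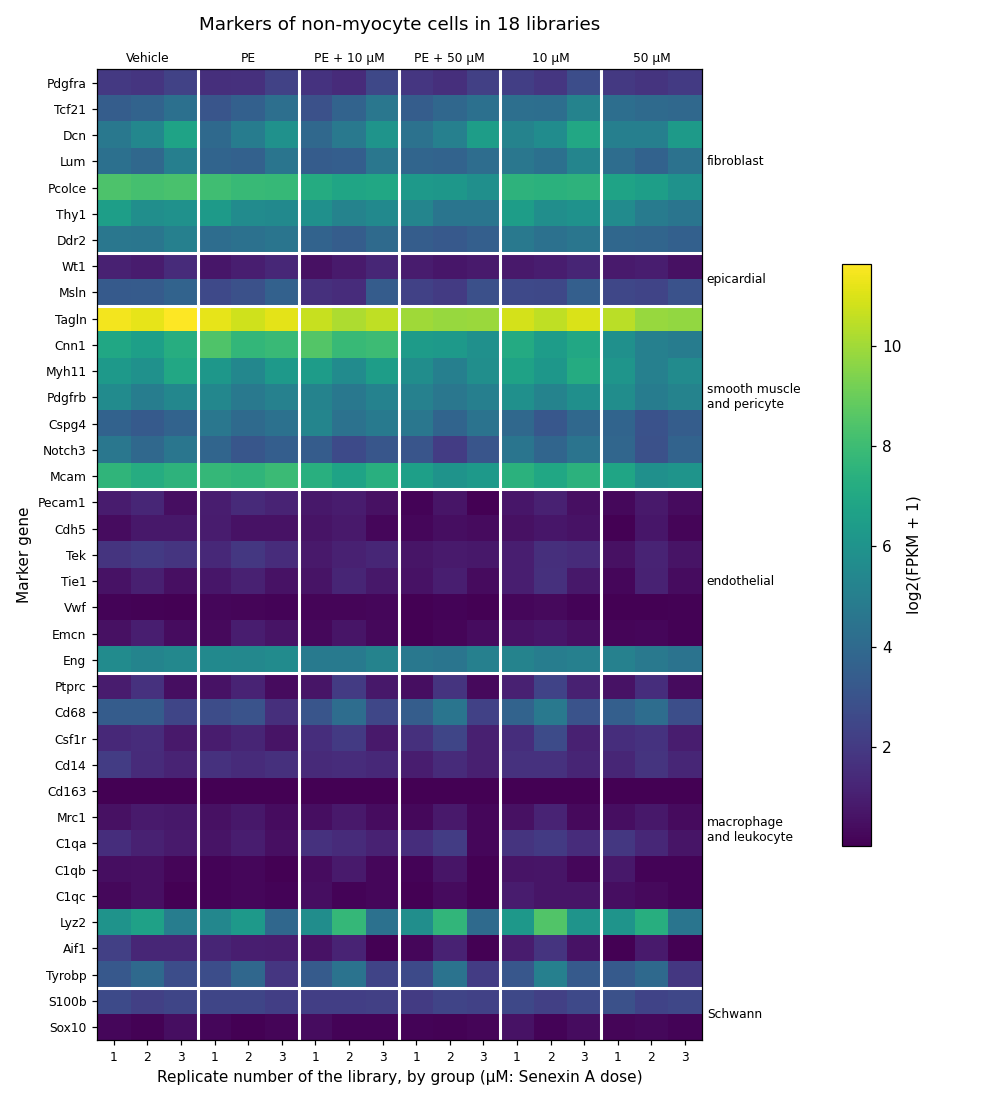
Level of the 37 markers (rows, by class) in the 18 libraries (columns, by group and replicate number), as log2(FPKM + 1). Tagln is the brightest row; most endothelial rows are dark, and Lyz2, Cd68, Tyrobp and Ptprc are brighter in replicate 2 than in replicate 3 of every group.

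Cardiomyocyte genes had a higher summed level than any of the marker classes. The sums hold different genes, so they do not give the share of each cell type. The summed level of 9 cardiomyocyte genes ran from 33413 to 102790 FPKM, and 70.3% of it was the ventricular light chain Myl2. The summed smooth muscle and pericyte level ran from 1070 to 3752 FPKM, and 79.9% of it was Tagln. The fibroblast sum lay between 163 and 565 FPKM, the macrophage sum between 22.9 and 432, and the endothelial sum between 22.4 and 53.2. The lymphocyte genes Cd3e and Ms4a1 did not pass 0.0982 FPKM.

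Depth differed little: relative depth, read from the steps of low values, ran from 0.833 to 1.11 times that of the reference library, and absolute depth is unknown. The sum of FPKM over all rows was lower in Vehicle (610324 to 660958) than in PE (810428 to 853958), and ran from 610324 to 910958 over all libraries. The upper quartile of the rows was nearly level, 20.4 to 21.7 FPKM. The part of these sums in the marker levels was not tested.

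Libraries with the same replicate number stood together across groups, and this touched the markers more than most genes. The macrophage sum was highest in replicate 2 and lowest in replicate 3 in 6 of 6 groups. In Vehicle it was 93.4, 136 and 45.6 FPKM in replicates 1, 2 and 3. In PE it was 58.9, 104 and 22.9 FPKM, and with 10 µM of Senexin A alone it was 104, 432 and 87.0 FPKM. The ratio of replicate 2 to replicate 3 lay between 2.98 and 10.4 over the 6 groups. Without Lyz2, which made up 75.6% of the sum, replicate 2 was still the highest and replicate 3 the lowest in 6 of 6 groups.

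Other classes ordered the numbers differently. The fibroblast sum was lowest in replicate 2 in 6 of 6 groups, and the smooth muscle and pericyte sum was lowest there in 5 of 6. Dcn, Lum and Pdgfra were highest in replicate 3 in 6 of 6 groups, as was Msln, whereas Thy1 and Pdgfrb were highest in replicate 1 in 6 of 6. Pecam1 and Tie1 were highest in replicate 2 in 6 of 6 groups, and 5 of the 8 tested macrophage genes were highest there in at least 5. By sums, replicate 2 thus had the highest macrophage level and low fibroblast and mural levels, and replicate 3 the lowest macrophage level. The fibroblast sum, 52.6% of it Pcolce, was also lowest in replicate 2 in 6 of 6 groups without Pcolce. By gene the order was mixed. Lum and Pdgfra were lowest in replicate 2 in 5 of 6 groups, and Dcn was lowest in replicate 1 in 5 of 6. The labels do not say what a number stands for.

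**Figure D2:**
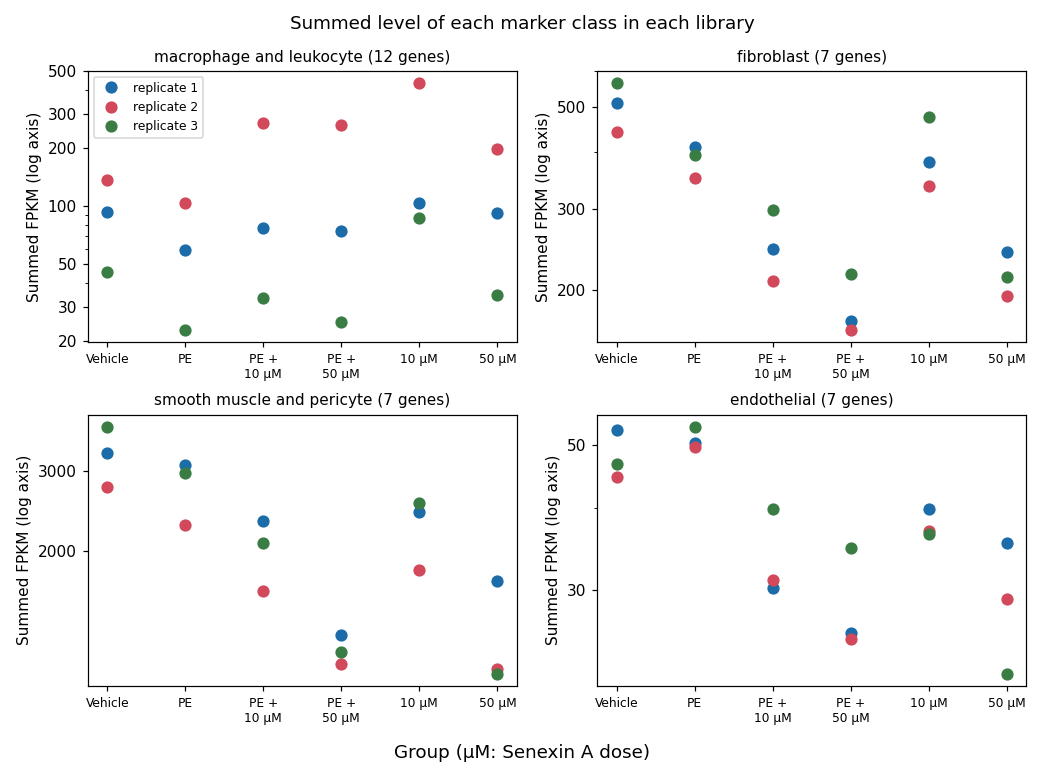
Summed FPKM (log axis) of 4 marker classes in each library, by group, with replicate numbers in colour. The macrophage sum keeps 1 order of numbers in every group. The smooth muscle and pericyte sum lies between 1070 and 1714 FPKM in the groups with 50 µM, against 2757 to 3752 in Vehicle. Tagln makes up 79.9% of the latter sum. Without Tagln it is 353 to 539 FPKM in Vehicle and 493 to 711 in PE. With 50 µM alone it is then 164 to 318 FPKM, and 209 to 295 in PE plus 50 µM.

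The sum of squares of each tested gene was divided into the part between the 6 groups, the part between replicate numbers and the rest, as a description. Over all 10478 rows tested, the median part between groups was 78.9% and the median part between numbers was 6.505%. For Dcn the number took 79.2% and the group 18.1%. Tyrobp (78.8% and 13.1%), Lyz2 (77.2% and 15.6%) and Ptprc (76.3% and 19.4%) were alike. At the other end stood Pcolce, with 2.68% between numbers and 94.8% between groups, Cnn1 with 5.27% and 91.1%, Ddr2 with 4.33% and 88.3%, and Tagln with 6.80% and 88.6%.

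By class, the median share between numbers was 62.3% for macrophage genes, 45.8% for fibroblast genes, 25.6% for smooth muscle and pericyte genes, 23.6% for endothelial genes and 5.43% for the cardiomyocyte list. It was larger than the share between groups in 6 of 8 macrophage genes, 4 of 7 fibroblast genes and 0 of 9 cardiomyocyte genes. The fibroblast class was thus divided. Dcn, Pdgfra, Lum and Tcf21 varied mainly with the number, and Pcolce, Ddr2 and Thy1 mainly with the group.

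**Figure D3:**
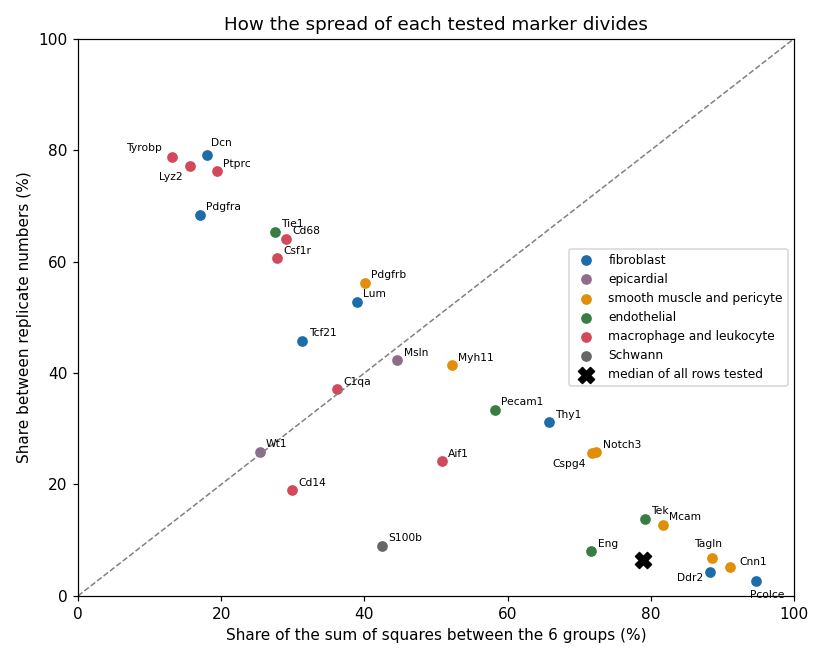
Share of the sum of squares of log2(FPKM + 1) between the 6 groups (x axis, %) and between the 3 replicate numbers (y axis, %) for the 29 tested markers, with the median of all rows tested. Points above the dashed line varied more with the number: Dcn, Tyrobp, Lyz2 and Ptprc lie at the top left, Pcolce and Cnn1 at the bottom right.

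Each comparison was tested with limma on log2(FPKM + 1), adjusted by the Benjamini-Hochberg method over all 10478 rows, and a gene was called at an adjusted p under 0.05. Because numbers paired the libraries, each comparison was also fitted with the replicate number as a block. Vehicle is shared by 3 of the comparisons and PE by 3, so their counts are not independent. Without the block, 13 of the 29 tested markers were called in at least 1 comparison, and 26 with it or without it. Each of the 41 calls made without the block was also made with it.

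Between PE and Vehicle, 2 of 29 markers were called higher and 1 lower, against 17.9% higher and 12.7% lower over all rows. With the block, 2 were higher and 9 lower, against 23% and 19.2%. Both counts without the block were below the share over all genes. The median log2 change of the 29 was -0.30, beside -0.01 over all rows.

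For 10 µM of Senexin A against Vehicle, limma called 0 markers higher (also 0 at an unadjusted p under 0.05) and 2 lower, against 9.17% and 7.01% of all rows. With the block, 7 were higher and 3 lower, against 14.4% and 11.9%. At 50 µM against Vehicle, 0 were higher (0 unadjusted) and 10 lower, against 30.5% and 30.2%, and with the block 0 and 14, against 33.6% and 33.9%. The 10 lower calls are 34.5% of the 29, near the share over all rows. The 0 higher calls stand beside nearly as many rises as falls in the whole table. At 50 µM against Vehicle the median log2 change of the 29 was -0.35, beside -0.01 over all rows.

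With PE present the counts were alike. For PE plus 10 µM against PE, 0 markers were higher (0 unadjusted) and 4 lower, against 9.13% and 7.84%, and with the block 5 and 10, against 14.7% and 13.2%. For PE plus 50 µM against PE, 0 were higher (0 unadjusted) and 9 lower, against 29.3% and 27.4%, and with the block 3 and 12, against 32.6% and 31.4%. Once more the falls at 50 µM were near the share over all rows.

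The doses were also compared directly. For 50 µM against 10 µM without PE, 0 markers were higher (0 unadjusted) and 9 lower, against 25.4% and 24.9%. With the block the counts were 0 and 19, against 29.2% and 30%. For PE plus 50 µM against PE plus 10 µM, 0 were higher (0 unadjusted) and 4 lower, against 21.3% and 19.9%, and with the block 1 and 9, against 25.6% and 25.3%.

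**Figure D4:**
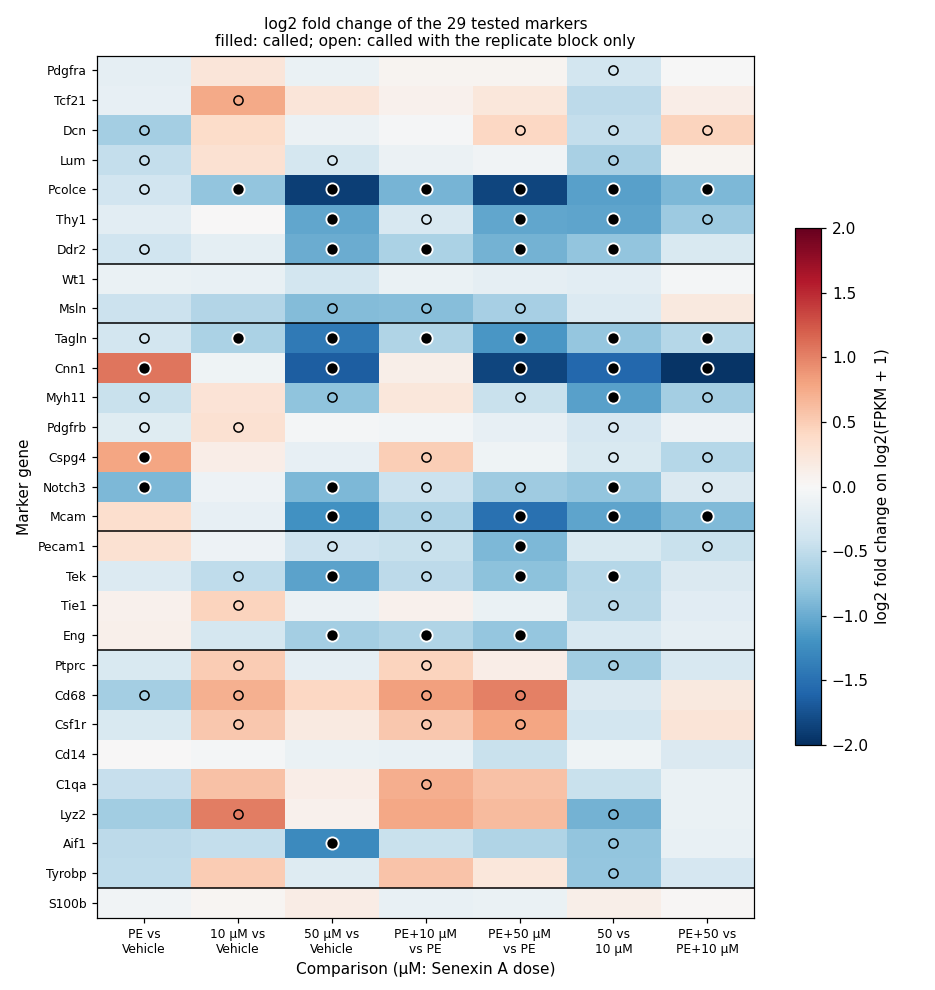
Log2 fold change of the 29 tested markers (rows, by class) in 7 comparisons (columns); filled points were called without the replicate block, open points only with it. Filled points lie mostly on blue cells of Pcolce, Tagln, Cnn1, Mcam and Ddr2, and open points on red cells lie mostly among the macrophage genes.

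Of the smooth muscle and pericyte markers, 4 of 7 fell at 50 µM against Vehicle without the block (5 with it), with a class median of -0.90, beside 30.2% of all rows. At 50 µM against 10 µM 5 of 7 fell (7 with it), with a median of -0.79, beside 24.9%. With PE present, 3 of 7 fell at 50 µM (5 with the block), beside 27.4%.

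Tagln lies at chr8:48847363-48852838 of rn5. Its FPKM in replicates 1, 2 and 3 was 2808, 2404 and 3214 in Vehicle, 2384, 1786 and 2345 in PE, and 1616, 1190 and 1504 in PE plus 10 µM. It was 1005, 918 and 946 in PE plus 50 µM, 1921, 1480 and 2015 with 10 µM alone, and 1396, 929 and 870 with 50 µM alone. The Vehicle libraries were the highest, and no library of a treated group reached the lowest of them. Those with 50 µM were low, though replicate 1 of 50 µM alone lay above replicate 2 of PE plus 10 µM. Group means fell from 2809 ± 405 (SD, n = 3) in Vehicle to 1065 ± 288 with 50 µM alone and 956 ± 44.4 in PE plus 50 µM.

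On the log2(FPKM + 1) scale, Tagln fell by 1.42 (SE 0.18, limma adjusted p = 5.3e-06) at 50 µM against Vehicle and by 1.17 (adjusted p = 4.4e-05) at 50 µM against PE. At 10 µM it fell by 0.64 against Vehicle (adjusted p = 0.024) and by 0.60 against PE (adjusted p = 0.033). The step from 10 to 50 µM was -0.78 without PE (adjusted p = 0.0019) and -0.58 with it (adjusted p = 0.018). All 3 same-numbered pairs went down in each of the 6. Calls at 10 µM were lost when any 1 of several libraries was left out, with changes still between -0.64 and -0.47. Against Vehicle the call did not hold without 10 µM replicate 2 (adjusted p = 0.117) or without Vehicle replicate 1 (0.0604) or 3 (0.102). Against PE it failed without PE replicate 1 (0.102) or 3 (0.115), without PE plus 10 µM replicate 2 (0.134) or 3 (0.0511), and with no filter on low values (0.0592). The step with PE did not hold without PE plus 10 µM replicate 1 (0.0724) or 3 (0.0570), without PE plus 50 µM replicate 2 (0.0508) and with quantile normalization (0.0642). PE against Vehicle gave -0.37 (adjusted p = 0.13), called lower with the block only (adjusted p = 0.022).

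Cnn1, at chr8:23167869-23176532, went in opposite directions with PE and with the high dose. Its FPKM was 124, 94.4 and 155 in Vehicle, 346, 207 and 238 in PE, and 375, 232 and 254 in PE plus 10 µM. In PE plus 50 µM it was 83.6, 75.5 and 57.4, with 10 µM alone 138, 86.3 and 128, and with 50 µM alone 57.4, 32.8 and 29.3. Every PE library lay above every Vehicle library, and PE plus 10 µM kept the range of PE. All 6 libraries with 50 µM lay below the lowest of Vehicle.

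Cnn1 rose by 1.07 with PE (SE 0.27, limma adjusted p = 0.0075). It fell by 1.65 at 50 µM against Vehicle (adjusted p = 7.4e-05), by 1.84 at 50 µM against PE (adjusted p = 3.1e-05), and by 1.57 and 1.96 from 10 to 50 µM without and with PE (adjusted p = 0.00019 and 3.3e-05). At 10 µM its change was -0.08 against Vehicle and 0.12 against PE, neither called with or without the block. The gene is also made by activated fibroblasts, as is Tagln. Which cells of the cultures, cardiomyocytes included, made either RNA was not tested.

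Mcam showed the same fall at the high dose. It was at 196, 147 and 183 FPKM in Vehicle, 216, 197 and 246 in PE, and 161, 108 and 164 in PE plus 10 µM. In PE plus 50 µM it was 95.0, 61.9 and 76.8, with 10 µM alone 174, 121 and 179, and with 50 µM alone 115, 56.2 and 63.9. No library with 50 µM reached any Vehicle or PE library. It fell by 1.21 (SE 0.24, limma adjusted p = 0.00040) at 50 µM against Vehicle and by 1.50 against PE (adjusted p = 6.7e-05). From 10 to 50 µM it fell by 1.05 without PE (adjusted p = 0.0018) and by 0.88 with PE (adjusted p = 0.0081). PE plus 10 µM against PE gave -0.62 (adjusted p = 0.090), called with the block (adjusted p = 0.0040).

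Notch3 and Cspg4 both answered to PE, in opposite directions. Notch3 was at 23.7, 14.6 and 22.6 FPKM in Vehicle and 13.0, 7.86 and 10.3 in PE. It was 9.62, 5.23 and 7.79 in PE plus 10 µM, 7.59, 3.30 and 7.60 in PE plus 50 µM, 22.1, 12.9 and 21.6 with 10 µM alone, and 13.5, 6.36 and 12.2 with 50 µM alone. PE and Vehicle did not overlap. It fell by 0.90 with PE (SE 0.32, adjusted p = 0.043), by 0.90 at 50 µM against Vehicle (adjusted p = 0.023) and by 0.79 from 10 to 50 µM (adjusted p = 0.049), where the libraries overlapped. With PE present the changes of -0.43 at 10 µM, -0.72 at 50 µM and -0.29 between the doses were called with the block only (adjusted p = 0.0055, 1.5e-05 and 0.024), and the last was 0.04 without PE plus 50 µM replicate 2.

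Calls of Notch3 without the block were lost when any 1 of several libraries was left out, with changes still between -0.91 and -0.49. For PE the adjusted p was 0.0805 to 0.153 without PE replicate 2 or 3 or Vehicle replicate 1 or 3, 0.0526 with a pseudocount of 0.1 and 0.0747 with no filter. At 50 µM against Vehicle it was 0.0725 to 0.130 without 50 µM replicate 2 or Vehicle replicate 1 or 3. Between the doses it was 0.0537 to 0.236 without 10 µM replicate 1 or 3 or 50 µM replicate 2 or 3. There it was also 0.0579 with a pseudocount of 0.1, 0.0828 with no filter, 0.0617 with quantile normalization and 0.0534 with the compared groups alone.

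Cspg4 was at 11.9, 8.78 and 12 FPKM in Vehicle, 24.0, 15.2 and 19.7 in PE, and 38.8, 20.4 and 26.7 in PE plus 10 µM. In PE plus 50 µM it was 23.4, 12.4 and 20.7, with 10 µM alone 14.5, 8.12 and 14.4, and with 50 µM alone 12.5, 6.77 and 10.0. All PE libraries lay above all Vehicle libraries, and its highest level was in PE plus 10 µM. It rose by 0.79 with PE (SE 0.28, adjusted p = 0.044). That call did not hold without PE replicate 1 (0.161) or 3 (0.0901), without Vehicle replicate 1 (0.0647), 2 (0.144) or 3 (0.0736), and with no filter (0.0758). With the block, PE plus 10 µM stood 0.50 above PE (adjusted p = 0.0022), and the step to 50 µM was -0.58 with PE and -0.30 without it (adjusted p = 0.00024 and 0.018).

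Myh11 was at 79.1, 59.0 and 125 FPKM in Vehicle, 70.8, 40.9 and 77.9 in PE, 86.3, 47.8 and 88.2 in PE plus 10 µM and 52.0, 31.8 and 52.7 in PE plus 50 µM. With 10 µM alone it was 104, 70.5 and 142 FPKM, and with 50 µM alone 67.0, 33.0 and 48.2. It fell by 1.08 from 10 to 50 µM (SE 0.35, adjusted p = 0.017), without overlap. The call did not hold without 10 µM replicate 3 (adjusted p = 0.0856) or 50 µM replicate 2 (0.0871). Called with the block only were PE (-0.45), 50 µM against Vehicle (-0.80), 50 µM against PE (-0.45) and the step between doses with PE (-0.68), with adjusted p between 8.3e-05 and 0.015.

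Pdgfrb was called in no comparison without the block. It was at 48.3, 29.8 and 41.2 FPKM in Vehicle, 41.7, 24.97 and 34.3 in PE, 36.8, 24.8 and 34.7 in PE plus 10 µM and 33.8, 23.8 and 31.8 in PE plus 50 µM. With 10 µM alone it was 57.2, 36.1 and 54.2 FPKM and with 50 µM alone 52.3, 29.1 and 36.3. In each comparison tested, the groups overlapped. With the block only, it was lower with PE (-0.24, adjusted p = 0.021), higher with 10 µM (0.30, 0.0090) and lower with 50 µM than with 10 µM (-0.33, 0.0015).

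**Figure D5:**
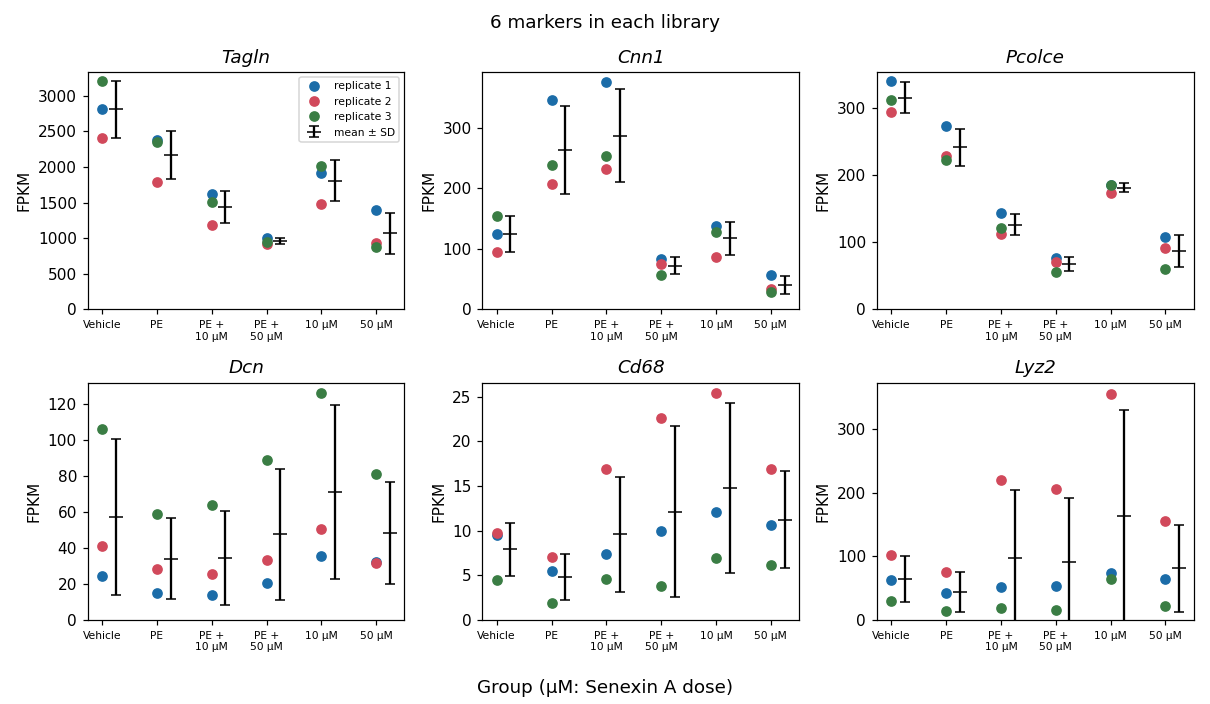
FPKM of Tagln, Cnn1, Pcolce, Dcn, Cd68 and Lyz2 in each library, by group, with replicate numbers in colour and mean ± SD of 3 libraries in black (bars are cut at 0 where the SD exceeds the mean). In the upper row 50 µM lies below Vehicle for each gene, while in the lower row replicate 3 is the highest for Dcn and the lowest for Cd68 and Lyz2 in every group.

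Fibroblast markers did not move as 1 group. Pcolce, Thy1 and Ddr2 fell at 50 µM against Vehicle and against PE, 3 of 7 in each comparison, beside 30.2% and 27.4% of all rows. Pdgfra, Tcf21, Dcn and Lum were called in no comparison without the block.

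Pcolce, at chr12:24171370-24177687, was at 340, 295 and 313 FPKM in Vehicle, 274, 229 and 223 in PE, and 144, 113 and 122 in PE plus 10 µM. In PE plus 50 µM it was 75.9, 71.2 and 55.5, with 10 µM alone 185, 174 and 186, and with 50 µM alone 108, 92.0 and 60.5. Like Tagln, it was called in all 6 comparisons that test Senexin A or its dose, and its groups did not overlap in any of them. It fell by 0.80 at 10 µM (SE 0.17, limma adjusted p = 0.0044) and by 1.89 at 50 µM (adjusted p = 1.3e-07) against Vehicle. Against PE it fell by 0.93 (adjusted p = 0.0016) and 1.83 (adjusted p = 2.1e-07). Each step from 10 to 50 µM was also called, at -1.09 without PE (adjusted p = 5.7e-05) and -0.90 with it (adjusted p = 0.00043). PE alone gave -0.39, called with the block only (adjusted p = 0.018 against 0.086 without it).

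Thy1 was at 91.2, 53.7 and 57.9 FPKM in Vehicle, 81.8, 49.1 and 45.8 in PE, 56.6, 36.5 and 44.9 in PE plus 10 µM and 39.1, 22.4 and 22.5 in PE plus 50 µM. With 10 µM alone it was 88.6, 53.3 and 60.6 FPKM, close to Vehicle, and with 50 µM alone 49.2, 27.8 and 22.3. It fell by 1.05 at 50 µM against Vehicle (SE 0.31, adjusted p = 0.0082), against PE (adjusted p = 0.0091) and against 10 µM (adjusted p = 0.010). The call against PE did not hold without PE replicate 1 (0.0540). The call against 10 µM did not hold without 10 µM replicate 1 (0.0525) or 50 µM replicate 3 (0.0580). With the block, PE plus 10 µM was lower than PE (-0.32, adjusted p = 0.029), and PE plus 50 µM lower than PE plus 10 µM (-0.72, adjusted p = 3.2e-05).

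Ddr2 was at 23.6, 22.9 and 32.6 FPKM in Vehicle, 16.9, 19.5 and 22.2 in PE, 12.02, 9.80 and 15.2 in PE plus 10 µM and 9.83, 8.53 and 10.7 in PE plus 50 µM. It was 25.7, 19.3 and 23.0 with 10 µM alone and 14.0, 12.8 and 11 with 50 µM alone. The high dose lay below its comparison group in every library. Ddr2 fell by 1.00 at 50 µM against Vehicle (SE 0.16, adjusted p = 6.4e-05), by 0.94 against PE (adjusted p = 0.00013) and by 0.80 against 10 µM (adjusted p = 0.00074). At 10 µM it fell by 0.63 against PE (adjusted p = 0.014), a call that failed without PE replicate 3 (0.0715) or PE plus 10 µM replicate 2 (0.0729). PE alone gave -0.41, called with the block only (adjusted p = 0.026).

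Dcn, at chr7:38783713-38823740, was at 24.2, 41.2 and 106 FPKM in Vehicle, 14.8, 28.6 and 58.8 in PE, 14.2, 25.7 and 64.0 in PE plus 10 µM and 20.3, 33.4 and 89.0 in PE plus 50 µM. With 10 µM alone it was 35.8, 50.8 and 126 FPKM, and with 50 µM alone 32.3, 31.6 and 81.1. Replicate 3 was the highest in every group, and all groups overlapped. Without the block its SE was 0.69 and with it 0.14. Within numbers, PE was lower than Vehicle (-0.68, block adjusted p = 0.0011, 3 of 3 pairs) and 50 µM was lower than 10 µM (-0.48, 0.0069). PE plus 50 µM was higher than PE (0.41, 0.015) and than PE plus 10 µM (0.44, 0.014), opposite to the direction of Pcolce, Thy1 and Ddr2. In the fit without the block, leaving out 1 library could turn the sign of the changes with 50 µM. Against PE the change was -0.06 without PE replicate 1 and -0.16 without PE plus 50 µM replicate 3, and against PE plus 10 µM it was -0.04 without the latter's replicate 1 and -0.14 without PE plus 50 µM replicate 3. The step from 10 to 50 µM alone was 0.03 without 10 µM replicate 3. Each omission left the replicate numbers uneven between the compared groups, and the number took 79.2% of the sum of squares of Dcn. Every same-numbered pair went in the direction of the full fit for each of these changes. No library was left out of the fit with the block.

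Lum, whose row lies next to that of Dcn on chromosome 7, was at 19.1, 14.6 and 31.9 FPKM in Vehicle, 12.4, 11.3 and 22.3 in PE, 9.59, 10.3 and 24.0 in PE plus 10 µM and 13.1, 12.1 and 16.9 in PE plus 50 µM. It was 23.7, 18.9 and 38.8 with 10 µM alone and 17.2, 11.9 and 20.5 with 50 µM alone. With the block only, it was lower with PE (-0.48, adjusted p = 0.014), with 50 µM against Vehicle (-0.35, 0.042) and with 50 µM against 10 µM (-0.65, 0.0010). Its change in PE plus 50 µM against PE was -0.07, so it did not share the rise of Dcn there.

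Tcf21 was at 9.79, 12.3 and 18.8 FPKM in Vehicle and 18.2, 17.9 and 36.8 with 10 µM alone. It was 7.57, 11.1 and 18.2 in PE, 6.38, 11.99 and 24.1 in PE plus 10 µM, 9.96, 13.8 and 18.8 in PE plus 50 µM and 17.8, 15.2 and 14.4 with 50 µM alone. With the block it was higher with 10 µM than in Vehicle (0.76, adjusted p = 0.028, 3 of 3 pairs), its single call. Pdgfra was at 2.88, 2.50 and 3.99 FPKM in Vehicle, 2.02, 2.12 and 3.91 in PE, 2.30, 1.74 and 4.81 in PE plus 10 µM and 2.63, 2.01 and 3.70 in PE plus 50 µM. It was 3.48, 2.65 and 5.75 with 10 µM alone and 2.89, 2.36 and 2.98 with 50 µM alone, a step of -0.36 called with the block only (adjusted p = 0.036).

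Of the epicardial genes, Msln was at 9.07, 9.21 and 12.3 FPKM in Vehicle, 4.97, 6.57 and 11.4 in PE, 2.11, 1.85 and 9.61 in PE plus 10 µM and 3.73, 3.12 and 6.23 in PE plus 50 µM. It was 4.95, 4.82 and 10.6 with 10 µM alone and 4.56, 4.28 and 6.76 with 50 µM alone. With 50 µM alone every library lay below every Vehicle library. No call was made without the block. With it, Msln was lower at 50 µM against Vehicle (-0.86, adjusted p = 0.0024), at 10 µM against PE (-0.86, 0.0081) and at 50 µM against PE (-0.66, 0.014). Wt1 stayed between 0.448 and 1.70 FPKM and was called in no comparison; its smallest adjusted p was 0.14, or 0.086 with the block.

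Of the 4 tested endothelial genes, 2 fell at 50 µM against Vehicle and 3 against PE without the block, beside 30.2% and 27.4% of all rows. Eng was at 48.0, 37.5 and 42.3 FPKM in Vehicle, 45.9, 42.5 and 48.5 in PE, 27.3, 26.4 and 36.8 in PE plus 10 µM and 24.3, 22.3 and 33.2 in PE plus 50 µM. It was 36.1, 30.1 and 32.6 with 10 µM alone and 34.4, 24.98 and 21.0 with 50 µM alone. It fell by 0.67 at 50 µM against Vehicle (SE 0.17, adjusted p = 0.0030), and by 0.60 at 10 µM and 0.78 at 50 µM against PE (adjusted p = 0.026 and 0.0011). The call at 10 µM did not hold without PE replicate 1 (0.0592) or 3 (0.0907) and without PE plus 10 µM replicate 1 (0.0974) or 2 (0.09996).

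Tek was at 2.36, 2.97 and 2.54 FPKM in Vehicle, 1.54, 2.78 and 1.79 in PE, 0.747, 1.11 and 1.41 in PE plus 10 µM and 0.617, 0.783 and 0.698 in PE plus 50 µM. It was 0.968, 2.00 and 1.76 with 10 µM alone and 0.437, 1.25 and 0.561 with 50 µM alone. It fell by 1.07 at 50 µM against Vehicle (SE 0.20, adjusted p = 0.00024), by 0.82 against PE (adjusted p = 0.0026) and by 0.56 against 10 µM (adjusted p = 0.029), where libraries overlapped. The last call did not hold without 10 µM replicate 2 (0.117) or 3 (0.0898), without 50 µM replicate 1 (0.116) or 3 (0.0912), with quantile normalization (0.204) and with the compared groups alone (0.0878). At 10 µM, changes of -0.51 against Vehicle and -0.53 against PE were called with the block only (adjusted p = 0.014 and 0.011).

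Pecam1 was at 0.882, 1.41 and 0.380 FPKM in Vehicle, 0.921, 1.68 and 1.26 in PE, 0.691, 0.843 and 0.468 in PE plus 10 µM and 0.110, 0.580 and 0.0376 in PE plus 50 µM. It was 0.651, 1.14 and 0.410 with 10 µM alone and 0.194, 0.733 and 0.281 with 50 µM alone. It fell by 0.89 at 50 µM against PE (SE 0.23, adjusted p = 0.0040). With the block it was also lower at 50 µM against Vehicle (-0.41, adjusted p = 0.017), at 10 µM against PE (-0.45, 0.027) and between the doses with PE (-0.44, 0.016).

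Tie1 went the other way at the low dose. It was at 0.480, 1.04 and 0.412 FPKM in Vehicle, 0.620, 1.10 and 0.512 in PE, 0.560, 1.34 and 0.690 in PE plus 10 µM and 0.496, 1.00 and 0.294 in PE plus 50 µM. It was 1.02, 2.06 and 0.719 with 10 µM alone and 0.162, 1.22 and 0.311 with 50 µM alone. With the block only, it was higher with 10 µM than in Vehicle (0.44, adjusted p = 0.022) and lower with 50 µM than with 10 µM (-0.55, 0.0020).

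Macrophage and leukocyte genes gave 1 call without the block, the fall of Aif1 at 50 µM, and no rise. With the block, 0 of 8 were higher and 1 lower at 50 µM against Vehicle, against 33.6% and 33.9% of all rows. From 10 to 50 µM without PE, 0 were higher and 4 lower, against 29.2% and 30%. Higher with the block were 4 of 8 at 10 µM against Vehicle, 4 of 8 at 10 µM against PE and 2 of 8 at 50 µM against PE. Beside these stand 14.4%, 14.7% and 32.6% of all rows. In those comparisons the class medians were 0.53, 0.55 and 0.41, and for the smooth muscle and pericyte class they were -0.08, -0.06 and -0.72. The difference between the classes was not tested.

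Lyz2, at chr7:60337949-60343246, was at 63.4, 102 and 29.8 FPKM in Vehicle, 41.7, 76.1 and 13.7 in PE, 52.5, 220 and 19.5 in PE plus 10 µM and 52.8, 206 and 15.5 in PE plus 50 µM. With 10 µM alone it was 73.3, 355 and 64.3 FPKM, and with 50 µM alone 64.9, 156 and 22.4. Replicate 2 was the highest and replicate 3 the lowest in every group, and the group ranges overlapped throughout. At 10 µM against Vehicle its change was 1.03, with an SE of 1.01 without the block (adjusted p = 0.54) and 0.31 with it (adjusted p = 0.021, higher in 3 of 3 pairs). From 10 to 50 µM it was -0.95, called with the block only (adjusted p = 0.015).

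Cd68, at chr10:56014363-56016243, was at 9.57, 9.69 and 4.49 FPKM in Vehicle, 5.48, 7.01 and 1.95 in PE, 7.34, 16.9 and 4.63 in PE plus 10 µM and 10.0, 22.6 and 3.82 in PE plus 50 µM. It was 12.04, 25.4 and 6.96 with 10 µM alone and 10.7, 16.9 and 6.11 with 50 µM alone. Within each number, PE was the lowest group. With the block, Cd68 was lower with PE (-0.67, adjusted p = 0.012) and higher with 10 µM against Vehicle (0.71, 0.014), with 10 µM against PE (0.82, 0.0059) and with 50 µM against PE (1.01, 0.00032), in 3 of 3 pairs each. Without it the adjusted p ran from 0.16 to 0.45.

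Csf1r was at 1.58, 1.85 and 0.733 FPKM in Vehicle, 0.849, 1.30 and 0.568 in PE, 1.95, 2.95 and 0.735 in PE plus 10 µM and 2.07, 4.53 and 1.05 in PE plus 50 µM. It was 1.91, 5.39 and 1.11 with 10 µM alone and 1.91, 2.27 and 0.946 with 50 µM alone. With the block it was higher at 10 µM against Vehicle (0.54, adjusted p = 0.044), at 10 µM against PE (0.53, 0.045) and at 50 µM against PE (0.80, 0.0016), as Cd68 was.

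Ptprc was at 0.847, 2.15 and 0.374 FPKM in Vehicle, 0.487, 1.25 and 0.267 in PE, 0.601, 3.05 and 0.675 in PE plus 10 µM and 0.366, 2.36 and 0.222 in PE plus 50 µM. It was 1.14, 4.17 and 1.09 with 10 µM alone and 0.511, 1.87 and 0.267 with 50 µM alone. The block gave calls at 10 µM against Vehicle (0.51, adjusted p = 0.019), at 10 µM against PE (0.45, 0.033) and for 50 µM against 10 µM (-0.69, 0.00093). C1qa was at 1.92, 1.10 and 0.837 FPKM in Vehicle, 0.549, 0.935 and 0.421 in PE, 2.21, 1.72 and 1.22 in PE plus 10 µM and 1.95, 3.17 and 0.181 in PE plus 50 µM. It was 2.43, 3.01 and 1.78 with 10 µM alone and 2.76, 1.50 and 0.589 with 50 µM alone. PE plus 10 µM and PE did not overlap for C1qa, and that difference of 0.73 was called with the block (adjusted p = 0.046).

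Tyrobp was at 8.32, 15.0 and 5.88 FPKM in Vehicle, 5.77, 13.9 and 2.59 in PE, 9.17, 20.6 and 4.35 in PE plus 10 µM and 5.28, 20.8 and 3.24 in PE plus 50 µM. It was 7.91, 32.5 and 8.99 with 10 µM alone and 8.93, 15.0 and 2.79 with 50 µM alone. Its single call, with the block, was the step of -0.77 from 10 to 50 µM (adjusted p = 0.010), which went down in 2 of 3 pairs. The library of 10 µM replicate 2 held the highest level of Lyz2, Cd68, Csf1r, Ptprc and Tyrobp in the series.

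Aif1 stood apart from the class. It was at 3.60, 1.36 and 1.37 FPKM in Vehicle and 1.30, 1.00 and 0.905 in PE. It was 0.494, 1.27 and 0.01 in PE plus 10 µM, 0.159, 1.18 and 0.01 in PE plus 50 µM, 0.867, 2.45 and 0.474 with 10 µM alone and 0.01, 0.791 and 0.01 with 50 µM alone, where 0.01 is the floor of the table. It fell by 1.27 at 50 µM against Vehicle (SE 0.38, adjusted p = 0.0091), a call that failed without Vehicle replicate 1 (-0.95, adjusted p = 0.0565). The step from 10 to 50 µM, -0.79, was called with the block only (adjusted p = 0.027). Cd14 stayed between 0.911 and 3.21 FPKM and was not called in any comparison, with or without the block.

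Promoters of 3 macrophage genes that were highest in replicate 2 of every group are shown with the letters GAGGAA, the core bound by the myeloid factor PU.1, searched on both strands (TTCCTC on the other). They are from RefSeq on the GRCr8 build, a different build from that of the levels, and run from 250 bases before to 50 after the gene start. Capitals mark the letters found. Lyz2 lies at chr7:54797962-54798261 (minus strand), Cd68 at chr10:54882392-54882691 (minus strand) and Ptprc at chr13:52259697-52259996 (minus strand).
Lyz2: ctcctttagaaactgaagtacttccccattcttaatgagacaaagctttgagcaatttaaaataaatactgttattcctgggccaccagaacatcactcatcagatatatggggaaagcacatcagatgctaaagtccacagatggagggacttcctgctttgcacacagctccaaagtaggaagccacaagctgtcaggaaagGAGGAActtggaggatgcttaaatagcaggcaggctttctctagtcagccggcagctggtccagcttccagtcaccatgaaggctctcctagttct
Cd68: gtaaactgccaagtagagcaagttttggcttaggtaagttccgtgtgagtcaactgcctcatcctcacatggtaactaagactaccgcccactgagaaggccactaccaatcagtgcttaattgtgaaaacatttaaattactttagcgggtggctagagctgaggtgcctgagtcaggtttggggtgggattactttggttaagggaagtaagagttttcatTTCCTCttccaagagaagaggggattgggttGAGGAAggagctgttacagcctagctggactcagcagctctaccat
Ptprc: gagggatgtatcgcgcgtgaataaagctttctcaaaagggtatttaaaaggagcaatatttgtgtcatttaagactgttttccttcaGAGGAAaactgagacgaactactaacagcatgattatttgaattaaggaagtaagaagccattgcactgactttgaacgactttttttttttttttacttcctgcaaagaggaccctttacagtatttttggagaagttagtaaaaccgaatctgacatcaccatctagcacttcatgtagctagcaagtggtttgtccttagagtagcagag

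Promoters were at hand for 21 of the 37 markers, 9 of them macrophage genes, and 7 of the 9 held the letters (Lyz2, Cd68, Ptprc, Csf1r, Cd14, Mrc1 and C1qb). In Lyz2 they lie 46 bases before the start and in Ptprc 163 bases before it. Of all 33469 promoters of the same length, 27.6% hold them. The CArG box, the motif of serum response factor, was looked for in the same way in the 3 smooth muscle and pericyte genes with a promoter (Cnn1, Cspg4 and Notch3) and was found in 0 of the 3, beside 1.64% of all promoters. A match or its absence describes these letters in this window.

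S100b, the tested Schwann marker, stayed between 3.05 and 6.36 FPKM. It was called in no comparison, and its smallest adjusted p was 0.39, or 0.35 with the block. Its class partner Sox10 was near the floor, so the level of S100b stands without the gene that defines the lineage.

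Whether Senexin A changed the markers differently in the presence of PE was tested as an interaction. At 10 µM, limma called 0 of 29 markers higher and 0 lower, against 0.0668% and 0.239% of all rows. At 50 µM it was again 0 and 0, against 2.24% and 4.76%. With the block the counts stayed at 0 at both doses, against 0.725% and 1.47% at 10 µM and 6.24% and 9.89% at 50 µM. At an unadjusted p under 0.05 the counts were 0 as well. For Pcolce the difference at 50 µM was 0.06 (SE 0.24), for Tagln 0.25 (SE 0.25) and for Cnn1 -0.19 (SE 0.39). With standard errors of this size, differences of a moderate size could have been missed.

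Further markers of the same classes were counted beside the members, 38 of which passed the filter. In fibroblasts 5 of 11 fell at 50 µM against Vehicle (30.2% of all rows) and 5 of 11 against PE (27.4%), and 0 rose in either (30.5% and 29.3% of all rows, and 0 at an unadjusted p under 0.05 by limma). They included Lox, the enzyme that cross-links collagen (-1.9998, adjusted p = 3.1e-06, and -1.78, 1.3e-05), and Col1a1 (-1.14, 0.0026, and -1.22, 0.0018). In smooth muscle 1 of 7 fell and 0 rose at 50 µM against Vehicle (4 and 2 with the block), and 3 of 7 rose at 10 µM against Vehicle (9.17% of all rows), where 0 of the 7 members did (1 with the block). There Acta2, smooth muscle actin, fell by 1.12 and 1.52 at 50 µM (adjusted p = 5.6e-05 and 3.1e-06). Rgs5, a pericyte gene, rose at 10 µM by 2.16 against Vehicle (adjusted p = 0.013) and by 2.66 against PE (adjusted p = 0.0035). Beside it, the changes at 10 µM were 0.30 and -0.06 for Pdgfrb and -0.11 and -0.43 for Notch3, none called without the block.

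Among the other classes, Flt1, a receptor for VEGF, fell by 1.04 at 50 µM against both Vehicle and PE (limma adjusted p = 8.3e-05 and 9.5e-05). Esam, a junction protein, fell by 0.81 with PE (adjusted p = 0.025). Each was the 1 call among 4 further endothelial genes there, beside 30.2%, 27.4% and 12.7% of all rows that fell. The epicardial genes Tbx18 and Aldh1a2, 2 of 4 tested, fell at 50 µM against Vehicle by 0.55 and 0.93 (limma adjusted p = 0.017 and 0.024). Beside them, 30.2% of all rows fell. Of 2 further Schwann genes, 1 fell with PE (12.7% of all rows). Of 10 further macrophage genes, 1 rose at each dose against Vehicle (9.17% and 30.5% of all rows) and 1 fell at 50 µM (30.2%). Cd74, the chain that escorts class II molecules, rose at 10 and 50 µM against Vehicle (1.92 and 1.83, limma adjusted p = 0.032 and 0.011). Trem2, a receptor of macrophages, fell at 50 µM (-1.21, adjusted p = 0.020), as Aif1 did. In 9 of the 10 further macrophage genes, replicate 2 was the highest in at least 5 of 6 groups, as in 5 of the 8 members.

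Cardiomyocyte genes also moved in the same comparisons, and their part in the marker levels was not tested. Of 9, 6 rose and 1 fell with PE, beside 17.9% and 12.7% of all rows. Against Vehicle, 5 rose at 10 µM (9.17%), and 3 rose and 2 fell at 50 µM (30.5% and 30.2%). Against PE, 3 rose and 0 fell at 10 µM (9.13% and 7.84%), and 2 rose and 4 fell at 50 µM (29.3% and 27.4%). From 10 to 50 µM 0 rose (25.4% without PE and 21.3% with it), and 4 fell without PE (24.9%) and 5 with it (19.9%). Their summed level was 34153 to 48772 FPKM in Vehicle, 84975 to 102790 in PE, 62740 to 82723 in PE plus 10 µM and 43045 to 54462 in PE plus 50 µM. With Senexin A alone it was 47382 to 61240 at 10 µM and 33413 to 52655 at 50 µM. FPKM is relative to the whole library. The median log2 change over all rows stayed between -0.02 and 0.01 in the 7 comparisons of groups.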

How the data were processed

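The authors deposited 1 table of FPKM values with a column for each library. Bowtie2, Cufflinks and the rn5 build are named in the submitters' processing notes, with no versions, annotation or strand handling given in the sources used here. The RNA was polyadenylated, per the labels' protocols, which also give groups and replicate numbers. Total reads are not given, so the spread between libraries sets the precision.

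A row was tested if 3 or more libraries reached 1 FPKM (10478 of 17303). Values were fitted as log2(FPKM + 1), which understates the change of low genes, by limma 3.58.1 under R 4.3.3, using 6 group means (12 residual degrees of freedom); the code was tested on simulated data. To check pairing, each library's deviation from its group mean was correlated with those of other groups: 45 pairs with 1 number gave 0.213 to 0.587, and 90 pairs with different numbers gave -0.462 to 0.0949. A fit with the replicate number as a block (10 residual degrees of freedom) therefore stands beside the fit without it. Alternatives were a pseudocount of 0.1, no filter, quantile normalization, median-ratio scaling, compared groups only and leaving out each library.

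The members and lists were chosen with earlier results of these data known. Every member was named, with each library's value if it was called in either fit; of further markers, up to 2 per class with the largest called change. Promoters came from RefSeq (GRCr8). Of the members, only Mrc1 shared its locus with another row. Python 3.11.15 (pandas 2.3.3, numpy 2.4.6, matplotlib 3.10.9) made the tables and plots.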

Additional observations from a re-analysis of the deposited data

How the results depend on the processing

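Of the 41 gene calls made without the block, 27 held in every setting tried. The replicate block moved several counts of markers: PE against Vehicle to 9 lower, 10 µM against Vehicle to 7 higher, PE plus 10 µM against PE to 5 higher and 10 lower, PE plus 50 µM against PE to 3 higher, 50 µM against 10 µM to 19 lower, and PE plus 50 µM against PE plus 10 µM to 1 higher and 9 lower. For PE against Vehicle, no filter gave 1 higher and 0 lower, a pseudocount of 0.1 gave 0 lower, quantile normalization 4 lower and the compared groups alone 2 lower. Elsewhere, no filter gave 1 higher at 10 µM against Vehicle, quantile normalization 1 higher at 50 µM against Vehicle, and the compared groups alone 1 higher for PE plus 10 µM against PE. Leaving out 1 library gave 1 to 2 higher and 0 to 1 lower for PE, 1 to 2 lower at 10 µM against Vehicle, 1 to 4 lower for PE plus 10 µM against PE, and 0 to 3 higher for PE plus 50 µM against PE (3 without PE plus 50 µM replicate 3). In the same omissions Dcn ran from -0.16 to 0.90 for PE plus 50 µM against PE, from -0.92 to 0.034 for 50 µM against 10 µM and from -0.14 to 1.00 for PE plus 50 µM against PE plus 10 µM, where Notch3 ran from -0.50 to 0.042. These omissions were fitted without the block only, so each left the replicate numbers uneven between the compared groups. The cause was not tested further. Both interactions stayed at 0 markers in the main and blocked fits. Low levels of most endothelial genes, and SE near 1 for Lyz2 without the block, limit what could be called.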
